A study of Arabidopsis thaliana with 18 samples.

Results

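Imbibed seeds of the Arabidopsis thaliana mpk8 line were compared with imbibed seeds labelled tcp14, 3 RNA-seq libraries against 3, out of 18 libraries in the series. Group membership was taken from the sample titles, and every locus was considered: read pairs were counted on 33602 loci, and 18061 of them held enough pairs to be tested. Both lines are described as gene knock outs in the submission. Their dormant seeds, from plants grown in soil at 21 °C, lay on wet filter paper in darkness at 25 °C for 24 h before polyadenylated RNA was made into stranded paired-end libraries. Wild-type seeds treated the same way (3 libraries) and dry seeds of the lines (3 libraries each) serve here as reference levels, and dry wild-type seeds (3 libraries) are used for 1 step on gene position. Replicates are labelled biological, but nothing states that separate plants or seed lots supplied them, so p-values measure only the spread between these libraries. The alleles, the number of independent lines and the number of seeds per library were not given in the sources used here.

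MPK8 encodes a mitogen-activated protein kinase, an enzyme that passes on signals by adding phosphate to other proteins, and TCP14 encodes a transcription factor of the TCP family that promotes germination in Arabidopsis. The title of the series links phosphorylation to the release of dormancy. Dormancy is the state in which a viable seed takes up water yet does not germinate, and abscisic acid (ABA) maintains it whereas gibberellin (GA) acts against it. When a seed leaves this state, cells of the embryo and endosperm loosen their walls, resume DNA synthesis and use up stored protein and oil.

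The mpk8 libraries held 16746225 to 21087747 counted pairs and the libraries labelled tcp14 held 15605937 to 17100130. Levels are given as CPM, the count of pairs on a gene divided by library depth and scaled with TMM factors that correct for differences in library composition. These factors were 1.25 to 1.26 in mpk8 and 1.16, 1.28 and 1.33 in libraries 3, 2 and 1 labelled tcp14, against 1.56 to 1.60 in imbibed wild type. On the first principal component of the 9 imbibed libraries, with 64.7% of the variance, wild type lay between 57.3 and 70.1, the libraries labelled tcp14 at -0.1, -12.6 and -29.0, and mpk8 at -59.1, -52.1 and -42.6. The second component, with 18.5%, set the libraries labelled tcp14 (34.1 to 38) apart from mpk8 (-26.1 to -24.0) and from wild type (-12.0 to -11). Library 3 labelled tcp14 stood nearest to mpk8 on the first component and library 1 nearest to wild type, and such a spread recurs in many results below. No 2 libraries were alike within sampling noise. As in any bulk sample, fewer cells of a type and less RNA per cell cannot be told apart.

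The targeted genes were measured first. MPK8 (AT1G18150, chromosome 1) stood at 4.05, 4.77 and 4.12 CPM in the 3 mpk8 libraries and at 11, 11.6 and 9.84 CPM in those labelled tcp14, with a wild-type mean of 11.7 CPM. Every mpk8 library lay below every library labelled tcp14. The log2 fold change, mpk8 over labelled tcp14, was -1.33 (SE 0.106, adjusted p = 2.2e-09 by edgeR's quasi-likelihood test), and it was -1.62 in dry seeds. TCP14 (AT3G47620, chromosome 3) stood at 14.8, 15.8 and 16.4 CPM in mpk8 and at 36.6, 36.0 and 30.9 CPM in the libraries labelled tcp14. The mpk8 libraries were therefore lower for this gene too (log2 -1.14, SE 0.0906, adjusted p = 2.19e-09), and each lay within 1 SD of the wild-type mean. TCP14 was thus not reduced in the libraries labelled tcp14, so the label is used below only as a name, and no difference is read as an effect of losing TCP14. The counts do not show which part of the gene the reads cover. The excess was larger in dry seeds (log2 -2.63), and the change from dry to imbibed was itself called (1.49, SE 0.144, adjusted p = 3.77e-07).

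**Figure D1:**
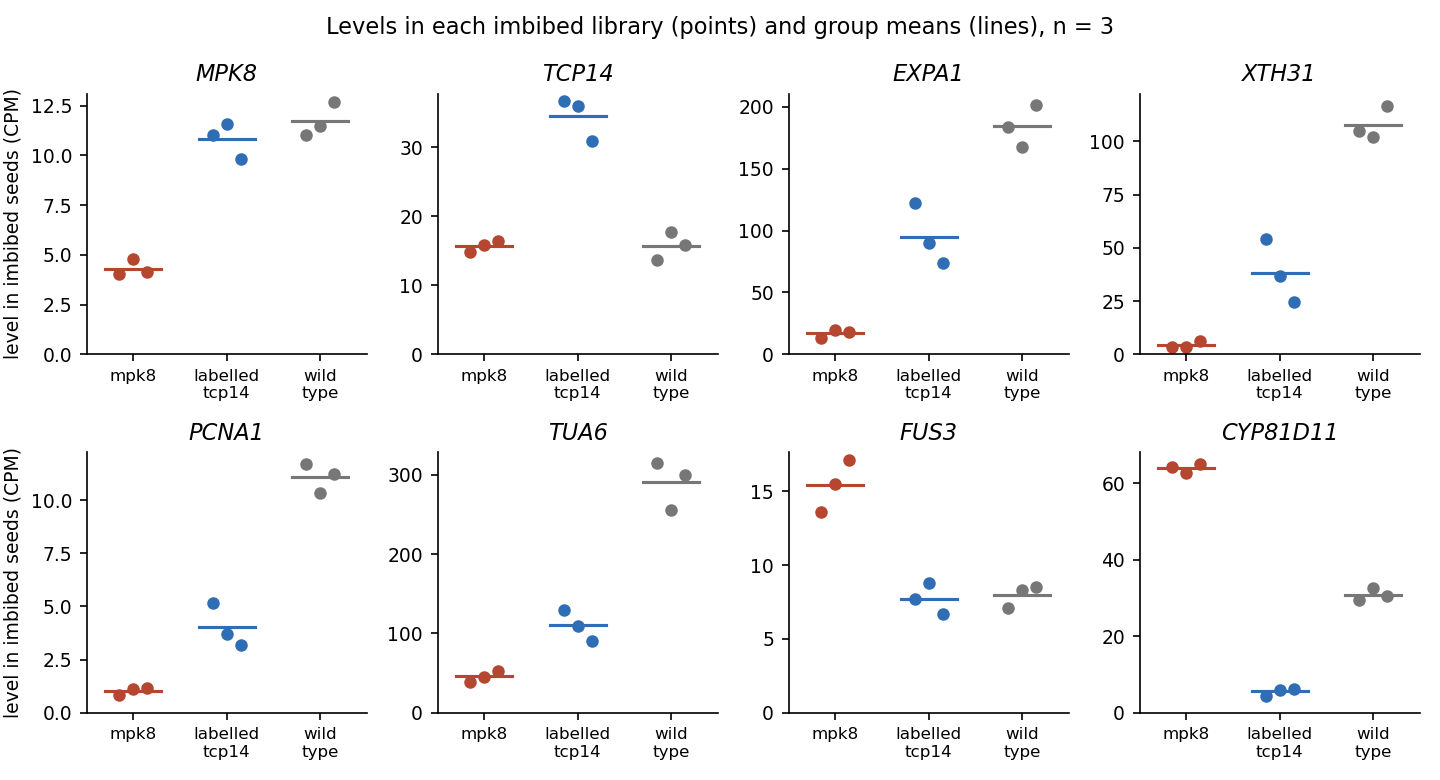
Level in CPM (vertical axes, each starting at 0) of 8 genes in each imbibed library, with points for the 3 libraries and a line for the mean of each group (mpk8, labelled tcp14, wild type). MPK8 lies lowest in mpk8 and TCP14 highest in the libraries labelled tcp14. EXPA1, XTH31, PCNA1 and TUA6 step from mpk8 through the libraries labelled tcp14 to wild type, FUS3 is highest in mpk8, and CYP81D11 is lowest in the libraries labelled tcp14.

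A gene was called when its Benjamini-Hochberg adjusted p over the 18061 genes was under 0.05. By this rule 3796 genes (21% of those tested) differed between the lines, 1707 higher in mpk8 (9.45%) and 2089 lower (11.6%). With a minimum change of 2-fold added, 984 genes (5.45%) were called, and 806 of them (4.46%) were lower in mpk8 against 178 higher (0.986%). The 3 mpk8 libraries did not overlap the 3 libraries labelled tcp14 in 6027 genes (33.4% of those tested). The median log2 fold change of all genes tested was 0.01. Most of the 2-fold calls were therefore genes with less transcript in mpk8 seeds, and the first gene groups below describe them. Counts of called genes in every imbibed gene list below are to be read against the all-gene shares, 9.45% higher and 11.6% lower.

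Lower genes were mostly those that wild type expressed more strongly than either line. In 680 of the 806 lower genes (84.4%) the imbibed wild-type mean exceeded the means of both lines, which held for 42.6% of all genes tested. Only 134 of the 806 (16.6%) were also called lower in the dry seeds, beside 12.3% of all genes, and they made up 6.02% of the dry calls in that direction. Of the 666 not called in dry seeds, 593 were under 1 CPM on average in both dry lines (3174 of all 18061 genes tested were), so dry seeds held little transcript to compare. Libraries also differed within each line: among the 806 genes, library 1 labelled tcp14 was the highest of its group in 573 (71.1%) and library 3 the lowest in 544 (67.5%), against 35.7% and 36.5% of all genes. In mpk8, library 1 was the lowest in 414 (51.4%) and library 3 the highest in 452 (56.1%), against 36.1% and 38.9%.

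Alpha-expansins, wall proteins that let cellulose and its coating glycans slip past each other, were lower in mpk8 as a group. Of 13 tested, 8 were lower and 2 higher (all-gene shares 11.6% and 9.45%), with a median log2 fold change of -1.58. EXPA1 (AT1G69530) stood at 13.5, 19.7 and 18.1 CPM in mpk8 and at 122, 89.6 and 73.5 CPM in the libraries labelled tcp14. The groups were far apart, with library 1 the highest of those labelled tcp14 (log2 -2.49, SE 0.152, adjusted p = 2.08e-11), and wild type was higher still at 184 CPM. EXPA9 (AT5G02260) (log2 -2.01, SE 0.151), EXPA10 (AT1G26770; -2.07, SE 0.174) and EXPA15 (AT2G03090; -2.05, SE 0.176) were lower to a similar degree. EXPA2 (AT5G05290), an expansin of the germinating endosperm, read 13.1, 18.4 and 19.9 CPM against 74.7, 69.5 and 46.1 CPM (log2 -1.90, SE 0.143). The 2 members that were higher were EXPA6 (AT2G28950; 0.794, 0.902 and 1.66 against 0.352, 0.331 and 0.387 CPM) and EXPA4 (AT2G39700), whose libraries overlapped, and 1 of these 2 calls ended without mpk8 library 2 or 3 or without library 1 or 3 labelled tcp14. Summed over the list, expansin transcripts came to 86.2, 117 and 124 CPM in mpk8, to 394, 335 and 261 CPM in the libraries labelled tcp14 and to 634 to 716 CPM in wild type. Only EXPA15 had a called change of the difference from dry to imbibed seeds among the 8 lower members.

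Xyloglucan endotransglucosylase/hydrolases (XTH), which cut and rejoin the xyloglucan chains that tether cellulose, behaved alike. Of 19 tested members of a list of XTH and mannanase genes, 10 were lower, none was higher, and the median was -1.10. All 10 were XTH genes, each lower by at least 2-fold and without overlap of libraries. XTH31 (AT3G44990) read 3.59, 3.44 and 6.11 CPM in mpk8 and 54.1, 36.8 and 24.4 CPM in the libraries labelled tcp14, beside a wild-type mean of 108 CPM. The lowest library labelled tcp14 was still well above the highest mpk8 library (log2 -3.16, SE 0.223, adjusted p = 1.15e-09). XTH19 (AT4G30290) read 6.43, 7.90 and 12.3 against 44.2, 34.1 and 26.2 CPM (log2 -2.00, SE 0.172). XTH18 (log2 -2.66, SE 0.414) and XTH33 (-2.08, SE 0.322) were scarce transcripts, under 3 CPM on average in either line. The 4 tested mannanase genes, whose products digest the mannan walls of the endosperm, did not pass the test; MAN7, with the most transcript of them, read 39.7, 43.0 and 43.4 against 47.2, 44.5 and 41.0 CPM and overlapped. The counts of lower expansin and XTH genes held at 8 and 10 when any single imbibed library was left out.

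DNA replication and cell cycle genes were lower in 17 of 29 tested and higher in 1, with a median of -0.80. PCNA1 (AT1G07370), the sliding clamp that holds DNA polymerase on its template, read 0.832, 1.12 and 1.18 CPM in mpk8 and 5.14, 3.68 and 3.21 CPM in the libraries labelled tcp14. The libraries did not overlap (log2 -1.96, SE 0.216, adjusted p = 2.04e-06), and wild type held 11.1 CPM. The genes that load the replicative helicase at origins showed the same direction: ORC2 (log2 -1.97, SE 0.429), of the origin recognition complex, and CDC6 (-1.74, SE 0.470), the loader. Both were under 1 CPM in either line. MCM7 (AT4G02060), a subunit of the helicase itself, read 1.89, 2.32 and 3.65 against 7.87, 6.37 and 4.70 CPM, with library 3 the nearest of each group to the other line (log2 -1.30, SE 0.191). The exception was CYCD3;3 (AT3G50070), a D-type cyclin of the G1 phase, at 6.73, 8.29 and 9.28 against 3.74, 5.05 and 3.37 CPM (log2 0.99, SE 0.170), which was higher in dry mpk8 seeds as well (1.93). In all 17 lower members wild type lay above both lines. The count of lower members was 11 without library 1 labelled tcp14, where CDC6 was not called.

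Tubulin genes, which supply the subunits of microtubules, were lower in 11 of 15 tested and higher in none (median -0.56). TUA6 (AT4G14960), an alpha-tubulin, read 39.3, 45.1 and 53.0 CPM in mpk8 and 130, 109 and 90.8 CPM in the libraries labelled tcp14, against a wild-type mean of 290 CPM. All mpk8 libraries lay below all of the others (log2 -1.27, SE 0.106, adjusted p = 5.97e-09). TUB1 was the most reduced (log2 -2.05, SE 0.253), followed by TUB5 (-1.48, SE 0.215) and TUA4 (-1.37, SE 0.150). For TUA4 and TUA6 the change of the difference from dry to imbibed seeds was called (-1.36 and -1.37). Such a negative change was called in 6 of 15 tubulins, beside 4.57% of all genes. Some tubulin genes are near copies of others in their family, and multihit pairs were dropped by the authors, so values of single members are uncertain.

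**Figure D2:**
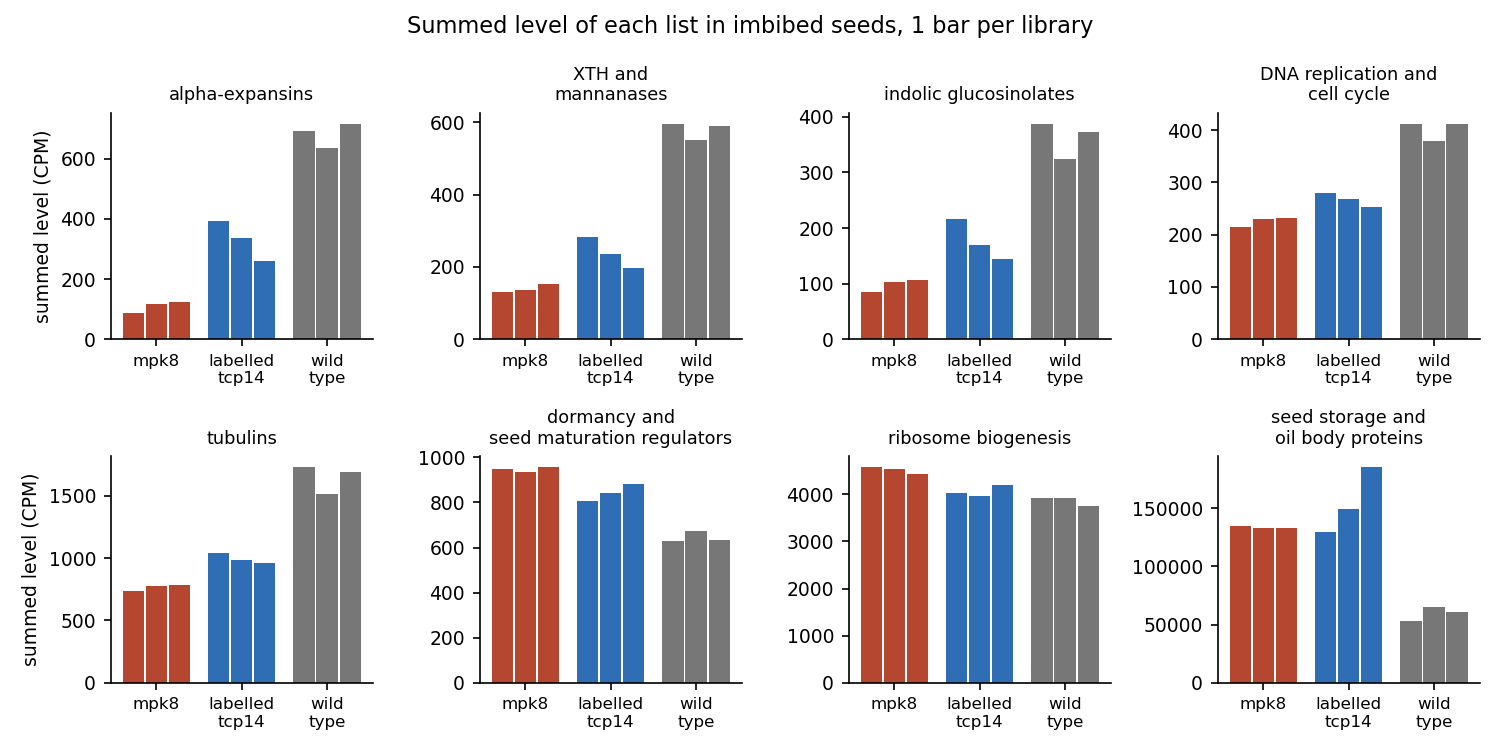
Summed level in CPM (vertical axes, each starting at 0) of 8 gene lists, with 1 bar for each imbibed library of mpk8, of the seeds labelled tcp14 and of wild type. Expansin transcripts sum to 86.2 to 124 CPM in mpk8, 261 to 394 CPM in the libraries labelled tcp14 and 634 to 716 CPM in wild type, and storage transcripts to 132740 to 134630, 129530 to 184990 and 53293 to 64651 CPM.

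The promoters of 3 of these genes are shown because they belong to groups that moved together, with 4 further promoters that hold a motif known to be bound by class I TCP proteins. Each is the 250 bases before the annotated start, read 5′ to 3′ on the gene's strand from TAIR10.1 with its RefSeq annotation, in which 17388 of the 18061 tested genes had a usable promoter. Capitals mark matches, on either strand, to 6 motifs: GTGGGNCC and TGGGCC, linked to TCP proteins, ACGTGNC of ABA-responsive elements, the heat shock element (GAA, TTC and GAA with 2 bases between them), AAACCCTA, known as the telo box, and TTGACC, the core of W boxes. Where its N is C, the first motif contains the second.
EXPA1 (chr1:26141476-26141725, + strand): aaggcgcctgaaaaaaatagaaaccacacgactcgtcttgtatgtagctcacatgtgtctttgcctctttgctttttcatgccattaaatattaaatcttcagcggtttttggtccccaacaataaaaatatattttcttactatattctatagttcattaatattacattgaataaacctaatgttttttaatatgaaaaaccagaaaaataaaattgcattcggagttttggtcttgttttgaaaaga
XTH31 (chr3:16448845-16449094, - strand): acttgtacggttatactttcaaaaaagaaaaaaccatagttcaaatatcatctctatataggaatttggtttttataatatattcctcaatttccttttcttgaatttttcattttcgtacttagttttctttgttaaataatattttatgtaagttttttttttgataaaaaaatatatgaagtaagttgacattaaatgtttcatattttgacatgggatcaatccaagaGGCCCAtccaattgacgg
PCNA1 (chr1:2262787-2263036, + strand): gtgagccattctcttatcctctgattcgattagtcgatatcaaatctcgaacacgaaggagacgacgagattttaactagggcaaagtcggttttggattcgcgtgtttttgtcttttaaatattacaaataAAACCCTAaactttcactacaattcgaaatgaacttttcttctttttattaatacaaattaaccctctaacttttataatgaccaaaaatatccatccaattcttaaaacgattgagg
AT2G27420 (chr2:11727655-11727904, - strand): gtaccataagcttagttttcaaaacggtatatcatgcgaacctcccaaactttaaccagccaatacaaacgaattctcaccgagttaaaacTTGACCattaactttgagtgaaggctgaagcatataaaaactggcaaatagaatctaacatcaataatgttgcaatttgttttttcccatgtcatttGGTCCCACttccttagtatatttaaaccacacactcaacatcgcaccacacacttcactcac
AT4G12870 (chr4:7541983-7542232, + strand): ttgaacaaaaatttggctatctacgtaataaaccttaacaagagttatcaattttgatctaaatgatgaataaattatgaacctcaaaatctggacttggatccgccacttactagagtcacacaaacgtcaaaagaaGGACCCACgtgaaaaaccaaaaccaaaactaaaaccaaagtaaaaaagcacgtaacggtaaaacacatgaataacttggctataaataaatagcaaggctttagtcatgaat
NPSN11 (chr2:14830376-14830625, + strand): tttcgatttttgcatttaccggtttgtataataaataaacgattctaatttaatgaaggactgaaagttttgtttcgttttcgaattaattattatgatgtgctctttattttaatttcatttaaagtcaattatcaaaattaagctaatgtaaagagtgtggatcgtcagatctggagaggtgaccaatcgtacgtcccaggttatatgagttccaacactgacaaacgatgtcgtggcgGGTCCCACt
AT4G34790 (chr4:16594112-16594361, + strand): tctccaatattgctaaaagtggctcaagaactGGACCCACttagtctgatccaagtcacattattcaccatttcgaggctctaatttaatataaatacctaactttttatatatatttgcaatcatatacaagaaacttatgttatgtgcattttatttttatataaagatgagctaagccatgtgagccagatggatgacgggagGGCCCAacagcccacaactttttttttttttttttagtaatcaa
EXPA1 held none of the 6 motifs in this window, XTH31 held TGGGCC on the opposite strand 13 to 18 bases before the start, and PCNA1 held AAACCCTA 111 to 118 bases before it.

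The last 4 are the genes outside the chromosome segments described below with the largest decreases among those holding GTGGGNCC. AT2G27420 codes for a cysteine proteinase, and it read 0.0378, 0.0429 and 0.0473 CPM in mpk8 against 0.352, 0.472 and 0.608 CPM (adjusted p = 0.00113), with so few pairs that no fold is given. AT4G12870, a thiol reductase gene, read 0.151, 0.472 and 0.284 against 3.39, 1.84 and 1.11 CPM (log2 -2.83, SE 0.432). All 3 mpk8 libraries were lower for both genes, which were scarce. NPSN11, a SNARE of vesicle fusion (log2 -2.09, SE 0.293), and AT4G34790, an auxin-responsive SAUR gene (-2.07, SE 0.302), had wild-type means of 8.65 and 7.11 CPM, above both lines. GTGGGNCC stood in 14 of 787 promoters of lower genes at 2-fold (1.78%), in 1 of 131 of higher genes (0.763%) and in 1.35% of all tested promoters. TGGGCC stood in 10.4% of the lower, 12.2% of the higher and 18.0% of all. Of the others, ACGTGNC was in 8.26% of lower, 9.16% of higher and 10% of all promoters, the heat shock element in 0.508%, 0.763% and 0.46%, AAACCCTA in 3.68%, 2.29% and 3.76%, and TTGACC in 10.9%, 8.4% and 12.0%. These are matches of letters in a short window and say nothing on whether a factor binds.

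Genes listed under indolic glucosinolates, sulfur-rich defence compounds built from tryptophan, were lower in 9 of 13 tested and higher in none (median -1.05). CYP81F4 (AT4G37410), which modifies the indole ring, read 0.643, 0.515 and 1.37 CPM in mpk8 and 14.8, 10.1 and 6.86 CPM in the libraries labelled tcp14. The gap between the groups exceeded the spread within them (log2 -3.69, SE 0.303, adjusted p = 3.97e-08), and the wild-type mean was 30.8 CPM. APK2, which makes the activated sulfate used by the pathway (log2 -2.20, SE 0.231), and SOT17, a sulfotransferase of glucosinolate synthesis (-1.78, SE 0.311), were also lower. Whether each listed gene serves indolic compounds was not tested. CYP81F2 was called (-1.32, SE 0.293) although 1 library of each group overlapped. Wild type was above both lines in all 9. Outside this list, the beta-glucosidase genes BGLU22 (0.718, 0.730 and 1.23 against 6.68, 5.71 and 3.26 CPM) and BGLU21 (log2 -2.38, SE 0.204) were among the 15 largest decreases. Those 2 are close copies of one another, so reads may be split between them.

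The GA and ethylene lists held few calls, with shares of lower members to be read against 11.6% of all genes. In the list of GA synthesis and catabolism 1 of 12 was lower and none higher: GA3OX2 (AT1G80340), which makes bioactive GA in the last step, at 0.681, 0.644 and 0.710 against 2.68, 1.94 and 1.22 CPM. The groups did not overlap (log2 -1.54, SE 0.304, adjusted p = 0.00155), and wild type held 9.23 CPM. In the list of GA perception and response 3 of 12 were lower and 1 higher. The lower ones were GASA6 (log2 -2.28, SE 0.143) and GASA4 (-1.67, SE 0.200), which code for GA-regulated peptides, and RGL1 (-1.13, SE 0.292), a DELLA repressor of GA responses. GASA1 of the same peptide family was higher, at 25.6, 37.2 and 30.4 against 7.17, 9.02 and 11.4 CPM (log2 1.76, SE 0.175, adjusted p = 9.03e-08), with wild type between the lines. The ACC oxidase gene ACO1 (AT2G19590) of ethylene synthesis was lower (log2 -2.23, SE 0.266), the 1 called of 8 in the ethylene list. RGL1 was no longer called without library 1 labelled tcp14, GA synthesis had 2 lower without library 2 of mpk8, and GA perception had 2 or 3 higher without library 3 of mpk8 or library 3 labelled tcp14.

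Members of the jasmonate list were lower in 6 of 14 and higher in 1 (median -0.31). JAZ1, which codes for a repressor that is itself switched on by jasmonate, read 1.59, 1.85 and 1.99 against 4.88, 4.34 and 5.14 CPM (log2 -1.41, SE 0.161). JAZ8 (-1.46, SE 0.244) and JAZ10 (-1.01, SE 0.230), of the same family, had the same direction, and all 3 were lower in dry mpk8 seeds too (-0.80, -1.19 and -0.58). LOX5 is a lipoxygenase gene in that list, and its part in jasmonate synthesis was not tested. It had 1 pair in mpk8 and 11 pairs in the libraries labelled tcp14, a ratio of 12.6 with a 95% counting interval of 1.83 to 541. Its call ended without mpk8 library 1 or 2 or library 2 labelled tcp14. Auxin transport genes were lower in 3 of 7, none higher: PIN7, an efflux carrier (log2 -0.86, SE 0.175), and the influx carriers AUX1 (-0.57, SE 0.136) and LAX2 (-0.54, SE 0.135).

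ABA genes showed smaller and mixed differences. In the signalling list of 28, 5 were higher and 4 lower (all-gene shares 9.45% and 11.6%), with a median of 0.01. The lower ones were the receptors PYL6 (log2 -1.52, SE 0.360), PYL2 (-0.93, SE 0.220) and PYL1 (-0.86, SE 0.275), all scarce, and the transcription factor ABF2 (-0.80, SE 0.169). Without library 1 labelled tcp14 neither PYL6 nor PYL1 was called, and PYL1 was not called without library 3 of mpk8 either. The higher ones included SNRK2.2 (AT3G50500), a kinase that carries the ABA signal, at 89.7, 85.9 and 90.7 against 66.0, 64.9 and 63.4 CPM (log2 0.45, SE 0.0488, adjusted p = 3.17e-07), and ABI5, a transcription factor that holds back germination (0.27, SE 0.0644). ABA1, for an early step of ABA synthesis, was the 1 called of 10 in its list (log2 0.28, SE 0.0604). CYP707A2 (AT2G29090), whose product breaks down ABA in imbibing seeds, was higher in mpk8 after imbibition at 44.9, 49.2 and 45.9 against 38.2, 37.4 and 39.2 CPM (log2 0.29, SE 0.0656, adjusted p = 0.0029). In dry seeds it was lower in mpk8 (log2 -1.05), and the change of 1.34 was called.

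Regulators of dormancy and seed maturation were higher in 6 of 14 tested (all-gene share 9.45%) and lower in none (median 0.14, all genes 0.01). FUS3 (AT3G26790), a B3 factor that drives seed maturation, read 13.6, 15.5 and 17.1 CPM in mpk8 and 7.69, 8.78 and 6.69 CPM in the libraries labelled tcp14. The groups did not overlap (log2 0.99, SE 0.107, adjusted p = 3.68e-07). Wild type, at 7.98 CPM, was near the libraries labelled tcp14. MFT, a seed regulator of the phosphatidylethanolamine-binding family, read 28.2, 26.8 and 26.5 against 15.6, 17.9 and 20.4 CPM (log2 0.60, SE 0.0942). DOGL4, a relative of DOG1 (0.31, SE 0.0656), SOM, a zinc finger repressor of germination (0.20, SE 0.0689), PIF1, a light-labile repressor of germination (0.17, SE 0.0534), and HUB2, a histone ubiquitin ligase needed for dormancy (0.17, SE 0.0588), differed by less than 1.5-fold. DOG1, the best known dormancy gene, read 2.46, 2.49 and 1.80 against 2.42, 2.08 and 1.88 CPM and overlapped (log2 0.08, SE 0.149, adjusted p = 0.779). The count of 6 was 3 without library 2 of mpk8, and 3 without library 3 of mpk8. In both fits SOM, PIF1 and HUB2 were not called. With DESeq2 size factors as the scaling it was 4, and with library totals 5. SOM kept its call only without library 3 labelled tcp14 among the 6 ways of leaving out 1 library.

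Storage and oil body transcripts, the reserves laid down in maturation, were lower in mpk8 in 6 of 16, with none higher (median -0.15). SESA4, a 2S albumin, read 476, 540 and 506 CPM in mpk8 and 837, 922 and 1120 CPM in the libraries labelled tcp14 (log2 -0.92, SE 0.0904), and the wild-type mean was lower than both at 298 CPM. The cruciferin genes CRU4 (-0.63, SE 0.0951), CRU3 (-0.49, SE 0.142) and CRU2 (-0.37, SE 0.0995) followed. In all 6, wild type lay below both lines. Over the list the libraries overlapped: 132740 to 134630 CPM in mpk8, and 129530, 149050 and 184990 CPM in libraries 1, 2 and 3 labelled tcp14. The count of 6 was 3 without library 1 of mpk8, and CRU3 was not called without library 1 or 2 of mpk8. LEA genes, for late embryogenesis abundant proteins that protect dry cells, were split, 7 higher and 5 lower of 29 (all-gene shares 9.45% and 11.6%). XERO2, a dehydrin, was higher (11.8, 10.6 and 13.4 against 2.68, 2.50 and 2.65 CPM, log2 2.19, SE 0.114), while the dehydrins COR47 (-1.86, SE 0.293), ERD10 (-1.54, SE 0.487) and ERD14 (-0.94, SE 0.300) were lower. Without library 3 labelled tcp14 the higher LEA genes numbered 12, and the lower ones numbered 3 without library 1 or library 3 of mpk8. ERD10 and ERD14 were not called in those 2 fits nor without library 1 labelled tcp14.

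Heat shock genes differed more in dry than in imbibed seeds. After imbibition 1 of 24 was higher, DREB2A (log2 0.31, SE 0.0826), a transcription factor of drought and heat responses, and 3 were lower, among them HSP22.0 (-0.73, SE 0.103) and HSP17.6B (-0.26, SE 0.0801), small chaperones. DREB2A was not called without library 1 labelled tcp14, and 1 lower member was left without library 2 of mpk8. HSP17.6B was not called in that fit nor without library 3 labelled tcp14. In dry seeds 16 were higher in mpk8 and 1 lower, beside 12.7% and 12.3% of all genes. In 12 the change was called negative, beside 4.57% of all genes. With library totals as the scaling, the dry count was 13 and the negative changes still numbered 12 (1147 and 438 of all 18061 genes). HSP18.2, the other lower one, had no pair in mpk8 and 5.50, 0.0944 and 0.0553 CPM in the libraries labelled tcp14, so that call rests on library 1, and it ended without that library or without any 1 mpk8 library.

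Genes of ribosome biogenesis were higher in 5 of 12 (all-gene share 9.45%) and lower in none (median 0.14), each by less than 1.5-fold. With DESeq2 size factors as the scaling 4 were higher. CBF5, which modifies ribosomal RNA, read 537, 547 and 500 against 422, 424 and 469 CPM (log2 0.27, SE 0.0611), and PRH75, an RNA helicase, FIB1, a methylase of ribosomal RNA, and PES, a factor of the large subunit, were at log2 0.21, 0.19 and 0.18. The count was 3 without library 1 of mpk8 or library 2 labelled tcp14, where PRH75 was not called, and FIB1 was not called without library 1 labelled tcp14. Genes for the cytosolic ribosomal proteins themselves were lower in 8 of 23 and higher in 1 (median -0.11), led by RPL3A (log2 -0.28, SE 0.0643), RPL23AA, RPL27AC and RPS6A (-0.24, -0.24 and -0.23). All 8 stood highest in wild type. The count was 5 without library 1 of mpk8 and 4 without library 1 labelled tcp14, and RPL23AA was not called without the latter or library 3 of mpk8. Ribosomal proteins come from families of near copies, so single members are uncertain.

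Reserve use and early photosynthesis made smaller contributions. Of 19 genes of reserve lipid mobilisation 2 were higher and 4 lower (all-gene shares 9.45% and 11.6%). SDP1L, a lipase of oil bodies, was higher (27.8, 27.7 and 30.0 against 19.6, 19.4 and 18.7 CPM, log2 0.57, SE 0.0822), whereas PMDH2, for a peroxisomal malate dehydrogenase (-0.66, SE 0.162), CSY2, for a peroxisomal citrate synthase (-0.32, SE 0.0791), and PCK1, for the first step from fat towards sugar (-0.18, SE 0.0579), were lower. The change from dry to imbibed was called negative in 9 of 19 (all-gene share 4.57%). With library totals as the scaling it was called negative in 3 (438 of all 18061 genes). Leaving out mpk8 library 1 or 2, or library 1 or 2 labelled tcp14, left 2 lower members, and leaving out any 1 imbibed library left 1 higher. PCK1 kept its call only without library 3 labelled tcp14, and CSY2 lost it without library 1 labelled tcp14. Nuclear photosynthesis genes were lower in 7 of 18 and higher in 1, around a median of 0.08. They were the Rubisco small subunits RBCS3B (4.54, 5.50 and 5.63 against 19.4, 10.5 and 11.7 CPM, log2 -1.42, SE 0.183), RBCS1B (-1.42, SE 0.317) and RBCS1A, GAPA (-1.03, SE 0.123) and GAPB of the Calvin cycle, PORB of chlorophyll synthesis (-1.01, SE 0.235), whose libraries overlapped, and RCA, the Rubisco activase. Genes of the light-harvesting complexes and photosystems were not among the lower ones, and LHCB4.1 was higher (0.23, SE 0.0674), though not without library 3 of mpk8.

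The remaining lists held fewer calls. Vacuolar invertase genes VI2 (log2 -3.27, SE 0.418) and VI1 (-2.75, SE 0.596) and RS5 of raffinose synthesis (-1.33, SE 0.424) were lower in the sugar list of 10, and SUS3, a sucrose synthase, was higher (0.21, SE 0.0619). VI2, VI1 and RS5 were scarce, with means of 0.226, 0.0679 and 0.295 CPM in mpk8 against 2.19, 0.504 and 0.749 CPM. Aquaporins, the water channels, were lower in 5 of 15, among them TIP1;2 (-2.76, SE 0.657), PIP2;8 (-1.34, SE 0.214) and PIP2;7 (31.6, 33.3 and 34.7 against 56.1, 47.8 and 45.8 CPM, -0.59, SE 0.0861). The first of these aquaporins was scarce as well, at 0.0, 0.215 and 0.142 against 0.703, 0.897 and 0.829 CPM. Genes that handle reactive oxygen were lower in 5 and higher in 2 of 14. FSD1, an iron superoxide dismutase, was higher (11.9, 14.9 and 12.8 against 5.94, 4.16 and 5.14 CPM, log2 1.37, SE 0.133), and the copper/zinc enzymes CSD1 (-0.37, SE 0.0700) and CSD2 (-0.24, SE 0.0589) and the ascorbate peroxidase APX1 (-1.07, SE 0.197) were lower. The clock genes TOC1 (0.29, SE 0.0475) and RVE8 (0.18, SE 0.0649) were the 2 higher of 11, and RVE8 kept its call in 1 of 6 leave-one-out fits, that without library 2 of mpk8. NLP8, which mediates nitrate-promoted germination, was higher at 233, 215 and 248 against 173, 178 and 161 CPM (log2 0.44, SE 0.0563, adjusted p = 4.04e-06), the 1 called of 6 nitrate genes. Among 22 MAP kinase pathway genes, MPK6 alone was higher (0.22, SE 0.0539) and MPK8 alone lower; among 17 TCP genes, TCP21 was higher (0.55, SE 0.171) and TCP14 lower. AHA10, a proton pump of the seed coat, was the 1 called of 5 flavonoid genes (0.99, SE 0.332), and neither of the 2 tested defence genes was called. The calls of RS5 (without library 2 of mpk8 or library 1 or 2 labelled tcp14), SUS3 (without library 1 of mpk8 or library 1 or 2 labelled tcp14), TCP21 (without library 2 or 3 of mpk8 or library 1 or 2 labelled tcp14) and AHA10 (without any library but mpk8 library 3) ended when 1 library was left out.

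**Figure D3:**
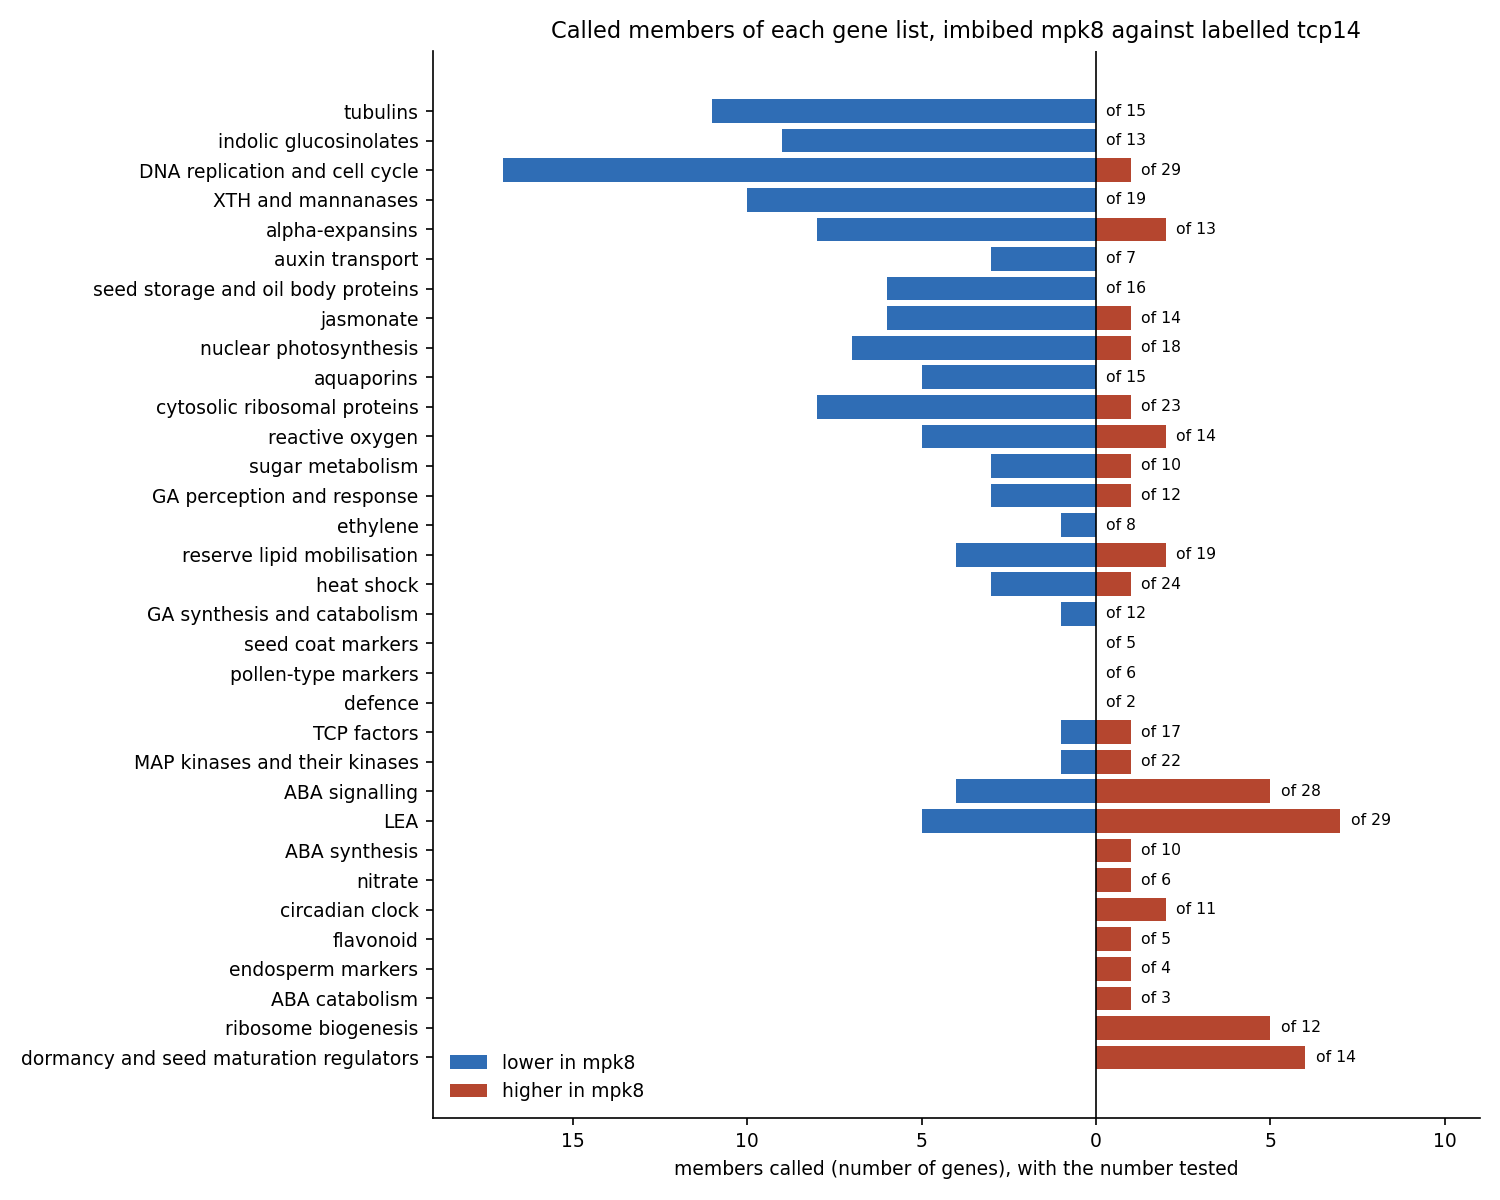
Number of members called lower (left of 0) and higher (right of 0) in imbibed mpk8 seeds for each of 33 gene lists, with the number tested beside the bar. Tubulin, indolic glucosinolate, replication, XTH and expansin lists, drawn at the top, have the largest shares of lower members (11 of 15, 9 of 13, 17 of 29, 10 of 19 and 8 of 13), and the regulators of dormancy and seed maturation have the most higher members among lists with no lower one (6 of 14).

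Markers of seed compartments were measured beside these groups. Transcripts of 4 tested endosperm markers summed to 6292, 7447 and 6461 CPM in mpk8 and to 4684, 5200 and 6684 CPM in the libraries labelled tcp14. EPR1 supplied nearly all of these sums (means of 6681 and 5479 CPM), and its libraries overlapped. CYP707A2 was the 1 called, and ZOU was too scarce to test. Of 5 tested seed coat markers none was called, with sums of 513 to 575 and 444 to 561 CPM, and BAN stood at 0 in both lines and was not tested. The part of seed compartments in the differences above was not tested. The 6 markers of pollen-type cells summed to at most 0.113 CPM in mpk8 and to 0 in the libraries labelled tcp14.

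The 178 genes higher at 2-fold had other features than the lower ones. Of them 98 (55.1%) were also called higher in dry mpk8 seeds, beside 12.7% of all genes, and these made up 4.27% of the dry calls in that direction. In 122 (68.5%) the imbibed wild-type mean lay between the lines, against 74 of the 806 lower genes (9.18%). Over all genes tested the share was 11.5%. Most of those were not called, so their line means leave little room between them. RefSeq classes 131 (73.6%) as protein-coding, against 97.6% of the lower genes and 96.3% of all. CYP81D11 (AT3G28740), a cytochrome P450 of the response to foreign compounds, read 64.1, 62.7 and 65.1 CPM in mpk8 and 4.48, 5.95 and 6.25 CPM in the libraries labelled tcp14, with wild type at 30.8 CPM. The 2 sets of libraries were far apart (log2 3.53, SE 0.0928, adjusted p = 2.51e-18), and the dry difference was alike in size (3.73). GSTU13 (AT1G27130), a glutathione transferase, read 35.1, 34.0 and 35.3 against 6.11, 6.61 and 6.25 CPM (log2 2.46, SE 0.0831), and RPP1 (AT3G44480), an immune receptor that recognises downy mildew, 65.8, 63.6 and 63.9 against 12.9, 14.7 and 13.8 CPM (2.22, SE 0.0615). Both were higher in dry mpk8 seeds (1.98 and 2.21). RPP1 sits in a cluster of related genes, and its counts are uncertain for that reason.

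Several of the largest increases had almost no transcript in the libraries labelled tcp14. HSD3 (AT3G47360), for a hydroxysteroid dehydrogenase, read 14.1, 14.3 and 16.0 against 0.132, 0.0944 and 0.111 CPM (log2 6.94, SE 0.213). Its close copy HSD2 had 728 pairs in mpk8 and 2 in the libraries labelled tcp14, a depth-scaled ratio of 319 with a 95% counting interval of 87.9 to 2636. HR4, a relative of a mildew resistance gene, had 528 pairs and 1 (ratio 462, interval 82.6 to 18286), and LpxC2, of lipid A synthesis, 492 and 1 (ratio 431, interval 76.9 to 17042). Without any pair in the libraries labelled tcp14 was PLC8 (AT3G47290), a phospholipase C, at 7.22, 7.51 and 7.01 CPM in mpk8, so it was at least 149.8-fold higher taking 3 pairs over the group as the floor. PLC8 had no pair in the dry libraries labelled tcp14 either, while imbibed wild type held 10.4 CPM. Smaller increases among the 15 largest were MEE26 (log2 3.10, SE 0.237), PERK10, a receptor-like kinase of the wall (2.35, SE 0.118), HCEF1, a plastid fructose bisphosphatase (1.98, SE 0.110), and MEE65 (1.57, SE 0.153). For MEE26 and PERK10 the difference was called larger after imbibition than in dry seeds (changes of 2.6 and 1.64), and for HCEF1 smaller (-0.79).

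In all, 9 genes had no pair in 1 line and at least 1 CPM in the other. AT3G29776 (8.21, 7.0 and 9.38 CPM), AT5G34871 (5.29, 4.85 and 4.88 CPM), AT3G42806 and AT3G29120 (means of 3.35 CPM each) and AT3G32925 (1.31 CPM) joined PLC8 in lacking pairs in the libraries labelled tcp14. For AT3G29776 and AT5G34871 this makes the mpk8 level at least 169-fold and 104-fold higher. In the other direction AT1G50810 (1.19, 1.13 and 1.60 CPM) and AT1G25988 (0.879, 1.37 and 1.33 CPM) lacked pairs in mpk8, and imbibed wild type held 0.0124 and 0 CPM of them. HSP18.2 was the third, with its level in 1 library.

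The largest decreases formed 2 sets by their wild-type level. TIF3C2 (AT3G22860), for a translation initiation factor subunit, read 0.265, 0.129 and 0.237 CPM in mpk8 and 8.13, 7.65 and 9.29 CPM in the libraries labelled tcp14, with wild type at 0.0423 CPM (log2 -5.25, SE 0.270). ADT4 (AT3G44720), for a step of phenylalanine synthesis, was alike (0.529, 0.472 and 1.18 against 21.9, 27.2 and 29.9 CPM, log2 -5.20, SE 0.200), as were ANNAT1, an annexin (-2.86, SE 0.104), UGT85A3, a glycosyltransferase (-2.85, SE 0.168), and SADHU10-1, a retroelement (-3.03, SE 0.205). These 5 were in wild type near the mpk8 level, and they were lower in dry mpk8 seeds as well. The other 10 of the 15 were highest in wild type. Besides EXPA1, XTH31, CYP81F4, BGLU21 and BGLU22 they were scpl44, a carboxypeptidase-like gene (1.47, 1.37 and 2.65 against 39.3, 23.1 and 19.7 CPM, log2 -3.93, SE 0.246), CXE13, a carboxylesterase (-2.90, SE 0.211), MRD1 (-2.71, SE 0.126), ELP, an extensin-like protein (-2.41, SE 0.219), and ASPGB1, an asparaginase (-2.37, SE 0.205).

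The 2-fold calls were next placed along the chromosomes. Runs of 2500 locus numbers (the digits after the chromosome in a locus name) were marked where at least 4% of at least 20 tested genes were called at 2-fold between dry seeds labelled tcp14 and dry wild type, libraries that are not among the 6 compared. At least 3 such runs, with at most 1 lower one between them, made a segment. Runs with fewer than 20 tested genes were passed over in this step. Both segments span such runs, and genes in them, such as AT3G32925, count as inside. There were 2 segments, locus numbers 20000 to 47499 of chromosome 1 (1036 tested genes) and 20000 to 62499 of chromosome 3 (2015 tested genes, TCP14 among them). Together they held 16.9% of the genes tested and 33.2% of the 2-fold calls. The share was 69.1% for higher genes (123 of 178) and 25.3% for lower genes (204 of 806). Inside, 4.03% of genes were higher and 6.69% lower at 2-fold, against 0.366% and 4.01% outside.

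Inside the segments 85 of the 123 higher genes (69.1%) and 86 of the 204 lower genes (42.2%) were called in the same direction in dry seeds, and outside 13 of 55 and 48 of 602 (7.97%). The dry comparison uses the dry libraries labelled tcp14 that also defined the segments. Outside, wild type lay above both lines in 572 of the 602 lower genes, and inside in 108 of 204 (52.9%). Of the 15 largest increases 11 lay in the segments, and of the 15 largest decreases 8. Of the 10 lower XTH genes 2 lay inside, of the 8 lower expansins 1 and of the 17 lower replication genes 3. Of the 11 lower tubulins 1 lay inside, and of the 9 lower glucosinolate and 6 lower storage genes none. Shares were larger in other lists: 4 of 8 lower ribosomal proteins, 3 of 6 lower jasmonate genes, and 3 of 7 higher and 3 of 5 lower LEA genes. Genes named above that lay inside included XTH31, FUS3, XERO2, COR47, ERD10, CBF5, SDP1L, GAPA, JAZ8, SNRK2.2 and CYCD3;3. What sets the segments apart, in sequence or otherwise, was not tested.

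**Figure D4:**
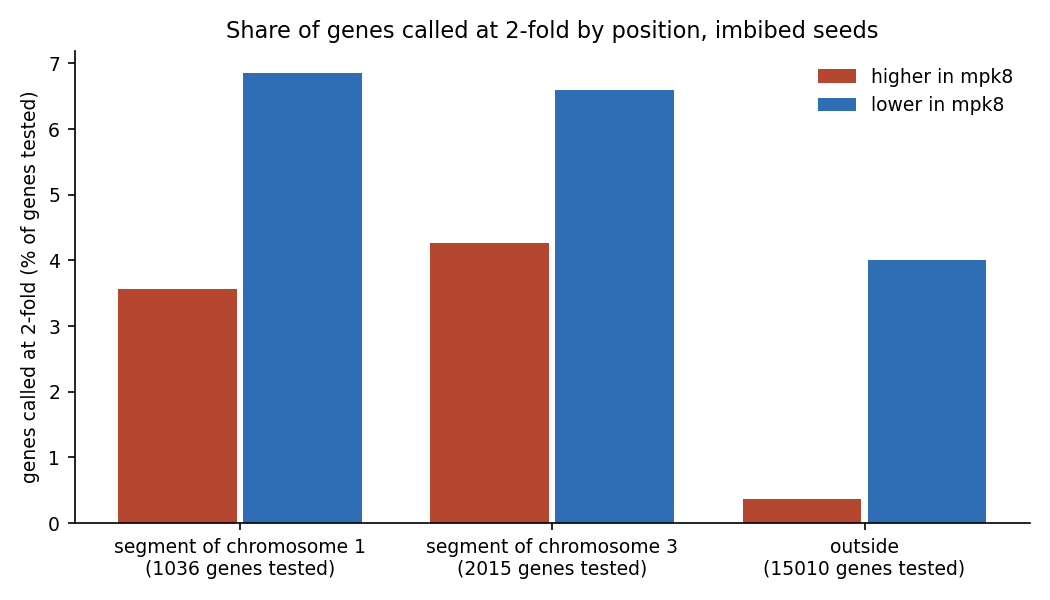
Share of tested genes called at 2-fold in imbibed seeds (vertical axis, percent) in the segment of chromosome 1, the segment of chromosome 3 and the rest of the genome, with bars for genes higher and lower in mpk8. Higher genes reach 3.57% and 4.27% in the segments and 0.366% outside, and lower genes 6.85%, 6.6% and 4.01%.

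Dry seeds of the same lines, in other libraries, show which differences were there before water. In dry seeds 4521 genes (25%) were called, 2294 higher in mpk8 and 2227 lower, so higher genes were 50.7% of the calls. At 2-fold 723 genes (4%) were called, 177 higher (0.98%) and 546 lower (3.02%). With library totals as the scaling, 1147 were higher and 3253 lower (26.1% higher), and the median of all genes moved from -0.01 to -0.11. The difference between the lines changed from dry to imbibed in 1870 genes (10.4%), towards mpk8 in 1044 (5.78%) and away from it in 826 (4.57%). At 2-fold these were 184 (1.02%) and 177 (0.98%). That split of 55.8% towards mpk8 was 42.9% with the size factors of DESeq2 and 80.2% with library totals, so the balance of directions depends on the scaling. Among the 2-fold imbibed calls, 25 of 178 higher genes (14.0%) and 87 of 806 lower genes (10.8%) had a called change in the same direction.

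**Figure D5:**
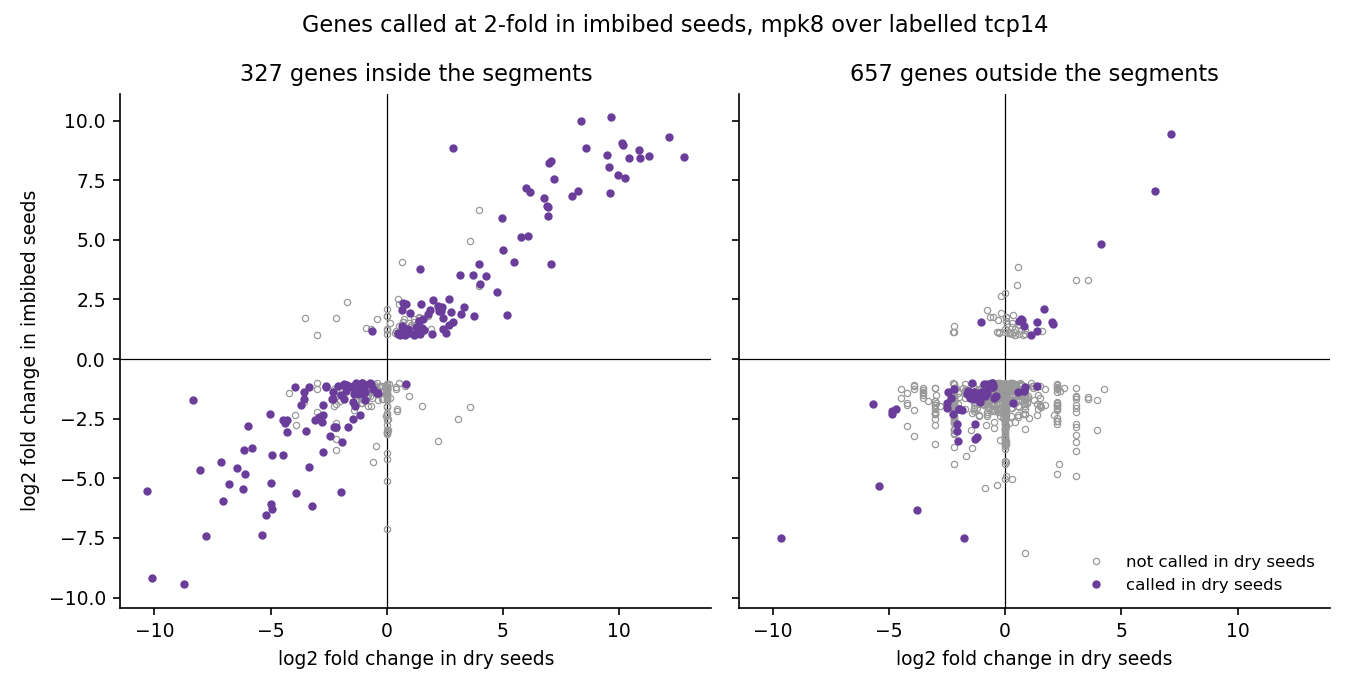
Log2 fold change, mpk8 over labelled tcp14, in imbibed seeds (vertical axis) against dry seeds (horizontal axis) for the 984 genes called at 2-fold after imbibition, 327 inside the segments (left) and 657 outside (right). Filled points are genes also called in dry seeds, which follow a diagonal inside the segments, and most points outside are open and lie below 0 on the vertical axis with dry values that rest on few pairs.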

How the data were processed

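Per the labels, RNA of dry and imbibed seeds was sequenced as stranded paired-end libraries, and per the submitters' processing notes TopHat2 and Bowtie2 aligned the reads against TAIR10 (versions not given in the sources used here). Per the file headers, the authors counted read pairs per transcript model, treated singletons as unmapped and dropped multihit pairs (1.31% to 2.11% of pairs read in a library). The deposited counts of pairs, 1 model per locus, were used as raw counts. The rule for overlapping genes was not given in the sources used here. Intervals on pair counts cover counting error only.

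Genes passing filterByExpr over 6 groups were fitted with edgeR 4.0.16 (limma 3.58.1, R 4.3.3), quasi-likelihood, 1 mean per group over all 18 libraries, TMM scaling and Benjamini-Hochberg adjustment over 18061 genes. SE are absolute log2 fold changes divided by the root of F. The principal components used log2 CPM with a prior count of 2. The fit was tested on simulated data. Symbols came from the 33 gene lists or from RefSeq (32835 loci matched, 97.7%).

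The comparison, lists and members were chosen with earlier results of these data known, so no list is independent evidence. Genes named are MPK8 and TCP14, the 15 largest increases and 15 largest decreases with a symbol, at least 5 CPM and no overlap, up to 4 called members of each list, and genes without a pair in 1 line (at most 8 in each direction). Others (EXPA2, EXPA4, EXPA6, MAN7, CYCD3;3, DOG1, SNRK2.2, ABI5, PIF1, HUB2, RBCS1A, GAPB, RCA, LHCB4.1, ZOU, BAN and the genes shown for GTGGGNCC) were named after their values were seen. Alternatives were scaling by DESeq2 size factors or by library totals, DESeq2 1.42.0 with its Wald test, testing every gene with a pair, the compared groups alone, a replicate block, single reads, no segments and each library left out.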

Additional observations from a re-analysis of the deposited data

Results flagged for a closer look

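The difference between mpk8 and the libraries labelled tcp14 changed from dry to imbibed seeds in 1870 genes by edgeR's test of the change itself. The values below are changes in log2 fold change, imbibed minus dry, of named genes that passed it. Changes towards mpk8 were found for TCP14 (1.49), MEE26 (2.6), PERK10 (1.64), GSTU13 (0.48), CYP707A2 (1.34), DOGL4 (0.98), CBF5 (0.64), SOM (0.37) and TOC1 (0.33). Changes away from mpk8 were found for the tubulins TUA4 (-1.36) and TUA6 (-1.37), the expansin EXPA15 (-2.33), the invertase VI2 (-2.05), the ABA receptor PYL1 (-2.80), the chaperones HSP22.0 (-1.88) and HSP17.6B (-0.74), UGT85A3 (-1.19), GAPA (-1.04), HCEF1 (-0.79), ANNAT1 (-0.67), CSD1 (-0.40), CSY2 (-0.37) and PCK1 (-0.26). AT1G50810 (-5.76) and AT3G42806 (6.0) also passed, but each had no pair in 1 imbibed group, so these fitted values depend on the prior count and are no bounds.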

How the results depend on the processing

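No gene named by rule reversed its direction under any alternative run. The balance of called genes, however, turned with the scaling. For the change from dry to imbibed it was 1044 towards mpk8 and 826 away. It was 808 and 1074 with DESeq2 size factors, and 730 and 1010 with the Wald test. In dry seeds 2294 higher and 2227 lower became 1147 and 3253 with library totals. With the compared groups fitted alone, 2349 genes were called in imbibed seeds (807 higher, 1542 lower), and 2326 of them were among the 3796. In dry seeds the same step gave 5033 calls in place of 4521. The main fit takes 1 spread per gene from all 18 libraries, and the imbibed libraries labelled tcp14 spread the most of the 6 groups. Why the counts moved in opposite directions was not tested. With a floor of 5 CPM in place of 1 CPM, 3 genes lacked pairs in 1 line in place of 9. Leaving out 1 library gave 2554 to 4440 imbibed calls, 754 to 1112 at 2-fold, 3550 to 3852 in dry seeds, 1342 to 2021 called changes, 131 to 181 called list members (165 with all libraries), and log2 fold changes of -1.41 to -1.28 for MPK8 and -1.22 to -1.10 for TCP14. Deviations of same-numbered libraries of the lines correlated at 0.276, -0.414 and -0.429 over 10208 genes. Library 3 of mpk8 correlated best with library 2 labelled tcp14 (0.709). Deviations within a group depend on one another, so these correlations cannot decide whether libraries of the same number were paired. With the replicate block 3962 genes were called in imbibed seeds, 981 at 2-fold, 4610 in dry seeds and 1974 for the change. Among the 122 genes named by rule, 23 lost their call under at least 1 alternative. They were mostly small differences (PCK1, SOM, RVE8, PRH75, FIB1, PES, SUS3, HSP17.6B, CSY2, CRU3, RPL23AA) or scarce transcripts (AHA10, CDC6, ERD10, ERD14, HSP18.2, LOX5, PYL1, PYL6, RGL1, RS5), beside DREB2A and TCP21. Genes named after their values were seen are not counted there, and some of them lost calls too (PIF1, HUB2 and LHCB4.1 among them). The cause of these losses was not tested.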
